A study of Mus musculus with 6 samples.

Results

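The unfolded protein response and integrated stress genes were a list of 45 genes, 25 of the ER chaperone arm and 20 of the Atf4 arm, and 44 of them were measured among 19938 genes. A gene was taken from the probe set that the platform annotation ties to that symbol alone, and from the brightest such probe set where there were several. Gdf15, of the Atf4 arm, was not analysed here. There were 3 arrays of Apc+/- and 3 of Apc+/-Atg7-/- mice, from normal duodenum on a C57Bl6 background. Both genotypes thus carry the Apc mutation and differ in Atg7, the E1-like enzyme that autophagosome formation needs. Age and sex are not given in the labels, nor whether Atg7 was deleted in every cell or only in some, and duodenum was hybridised whole, so fewer cells of a type and less RNA per cell cannot be told apart. The labels do not say that the 3 samples of a genotype came from separate animals or litters. The p-values therefore speak only for the variation among these arrays, which may be technical in part.

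The endoplasmic reticulum (ER) folds secreted and membrane proteins. When unfolded protein accumulates, the sensors Ern1 (IRE1-alpha), Atf6 and Eif2ak3 (PERK) release the chaperone Hspa5 (BiP). Ern1 then splices Xbp1 mRNA, cleaved Atf6 enters the nucleus, and Eif2ak3 phosphorylates the translation factor eIF2-alpha. That last step is shared with kinases for double-stranded RNA, amino acid lack and haem lack, and it lets the mRNA of the transcription factor Atf4 be translated: this is the integrated stress response. Paneth and goblet cells, which secrete large amounts of protein, depend on the pathway in the intestine, and autophagy removes damaged ER. Much of the pathway is controlled by splicing, cleavage, phosphorylation and translation, none of which a signal per gene can show.

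Some genes of the ER arm share an element in the sequence of their promoters. RefSeq promoter windows of 300 bases (GRCm38.p6, 250 before to 50 after a gene's start) were found for 37 of the 44 genes. They were searched on both strands for the ER stress response element, CCAAT followed after 9 bases by CCACG, to which Atf6 and the factor NF-Y bind. It lay in 9 of the 21 ER arm genes with a window, in 0 of the 16 of the Atf4 arm, and in 39 of all 32851 windows (0.119%), which belong to 37 of 27025 genes (0.137%). The matches are printed with 20 bases on either side, as the coding strand reads 5′ to 3′, with the outer parts of the element in capitals. Where the element lies on the opposite strand the capitals read CGTGG and ATTGG.

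Calr, chr8:84847055-84847113, minus strand: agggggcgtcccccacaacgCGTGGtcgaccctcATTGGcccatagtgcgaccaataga
Canx, chr11:50325780-50325838, minus strand: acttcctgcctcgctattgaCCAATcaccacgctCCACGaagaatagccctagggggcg
Creld2, chr15:88819500-88819558, plus strand: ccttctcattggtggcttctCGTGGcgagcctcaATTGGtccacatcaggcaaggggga
Derl3, chr10:75893222-75893280, plus strand: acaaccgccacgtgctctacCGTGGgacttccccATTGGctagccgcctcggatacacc
Dnajc3, chr14:118937807-118937865, plus strand: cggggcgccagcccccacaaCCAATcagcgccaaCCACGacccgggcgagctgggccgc
Hsp90b1, chr10:86705513-86705571, minus strand: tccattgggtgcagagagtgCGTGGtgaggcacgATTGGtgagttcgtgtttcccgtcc
Hsp90b1, chr10:86705618-86705676, minus strand: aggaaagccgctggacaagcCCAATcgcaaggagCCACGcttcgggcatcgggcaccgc
Hspa5, chr2:34772005-34772063, plus strand: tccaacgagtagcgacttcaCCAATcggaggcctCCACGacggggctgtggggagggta
Pdia6, chr12:17266471-17266529, plus strand: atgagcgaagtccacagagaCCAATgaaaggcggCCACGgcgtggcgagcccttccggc
Syvn1, chr19:6046512-6046570, plus strand: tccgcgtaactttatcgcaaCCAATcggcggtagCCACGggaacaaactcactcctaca

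Hspa5, the classical gene of this kind, has its match 47 to 65 bases before the start, Pdia6 at 80 to 98 and Creld2 at 108 to 126, and Hsp90b1 has a pair. The shorter CCACG, which is part of every such element, is common, with 10765 windows (32.8%) or 9589 genes (35.5%), 17 of the 21 ER arm genes and 11 of the 16 Atf4 arm genes. TGACGTGG, a site bound by spliced Xbp1 and by Atf6, which itself contains CCACG on the other strand, lay in 222 windows (0.676%) or 193 genes (0.714%) and in 0 genes of either arm.

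Some genes of the Atf4 arm shared the letters of the composite site of a C/EBP and an ATF factor, TGATGNAA. It lay in 5 of the 16 genes with a window (Asns, Atf3, Chac1, Trib3 and Vldlr), in Herpud1 alone among the 21 of the ER arm, and in 1304 of all windows (3.97%), or 1219 of the 27025 genes (4.51%). The matches before the start are shown in the same way, with the site in capitals and, for Asns, fewer bases after it. The match of Trib3 lies after the start and is named only.

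Asns, chr6:7693210-7693252, minus strand: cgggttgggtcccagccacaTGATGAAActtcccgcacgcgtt
Atf3, chr1:191183416-191183463, minus strand: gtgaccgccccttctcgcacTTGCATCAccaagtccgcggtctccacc
Chac1, chr2:119351029-119351076, plus strand: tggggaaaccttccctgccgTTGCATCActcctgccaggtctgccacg
Herpud1, chr8:94386297-94386344, plus strand: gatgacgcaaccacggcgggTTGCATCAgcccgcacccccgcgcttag
Vldlr, chr19:27216800-27216847, plus strand: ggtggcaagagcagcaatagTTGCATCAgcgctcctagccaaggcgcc

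These matches describe the windows and say nothing of binding in duodenum.

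None of the 44 genes differed between the genotypes past the threshold. By limma with Benjamini-Hochberg adjustment over all genes, 0 of 44 had an adjusted p under 0.05, where 22 of 19938 genes did (0.110%), and the lowest adjusted p of a member was 0.656, for Atf3. At an unadjusted p under 0.05 there were 5 members (11.4%) against 5.11% of all genes. They were Pdia6, Hyou1, Creld2 and Atf3, which were higher in Apc+/-Atg7-/- duodenum (2.38% of all genes were higher at this limit), and Vldlr, which was lower. This count of 5 was 3 without Apc+/- replicate 2, without Apc+/-Atg7-/- replicate 2 and without Apc+/-Atg7-/- replicate 3, and 8 without Apc+/- replicate 3. The share of all genes at this limit was 3.57%, 3.87%, 3.75% and 5.54% under the same omissions. Leaving out Apc+/- replicate 1 left 3 of 25 ER arm genes and 1 of 19 Atf4 arm genes at this limit. The share of all genes was then 12%, so the excess among members did not hold without that array. With the dimmer 50% of genes removed, 7.35% of those left were at this limit, among them 4 of 25 ER arm genes and 2 of 13 Atf4 arm genes. With 3 arrays against 3 an exact permutation test cannot give a p below 0.1.

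Differences were small in both directions. They ran from -0.21 (Vldlr) to 0.36 (Atf3) on the log2 scale. The 95% confidence interval lay within 0.5 of 0 for 36 of the 44, and for 18033 of all 19938 genes, a larger share. The median difference was 0.06 over the ER arm (16 of 25 higher) and 0.06 over the Atf4 arm (11 of 19 higher), beside -0.02 over all genes, of which 43.2% were higher. Among the genes left when the dimmer 50% were removed, the median was -0.001 and 49.8% were higher. All 25 genes of the ER arm were among those left. When each array was centred on its median, 54.1% of all genes were higher, the ER arm still had 16 higher and the Atf4 arm had 14. Leaving out Apc+/- replicate 3 raised the ER arm's median to 0.12, and leaving out Apc+/- replicate 2 lowered it to 0.02. The Atf4 arm's median was 0.09 without Apc+/- replicate 3, 0.02 without Apc+/- replicate 1, 0.01 without Apc+/- replicate 2, and -0.01 and -0.004 without Apc+/-Atg7-/- replicates 2 and 3.

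**Figure D1:**
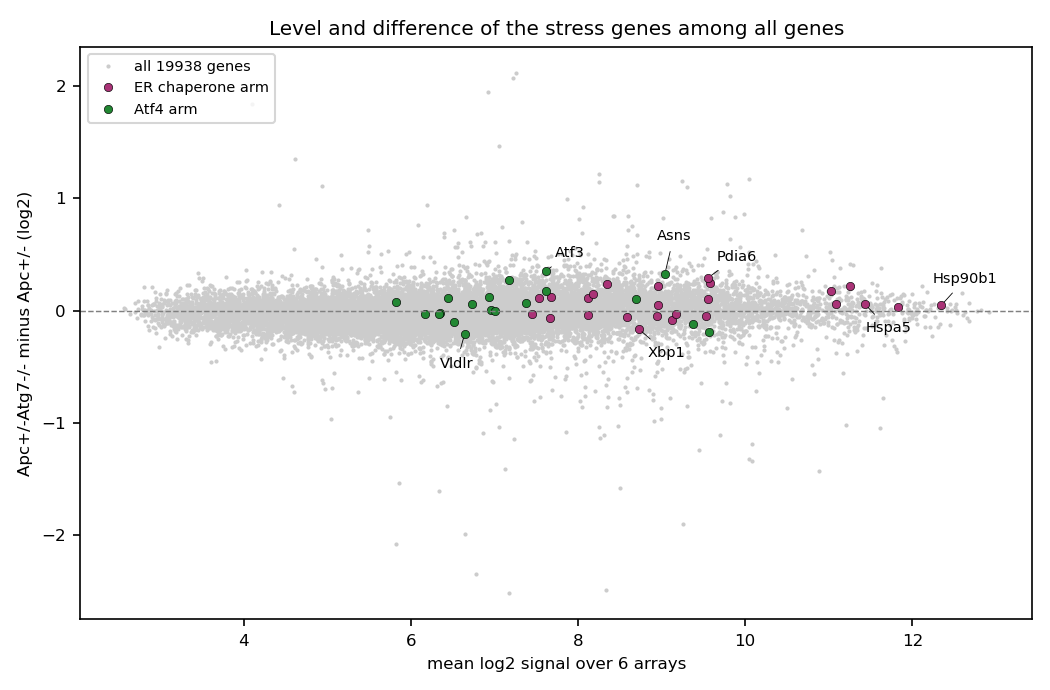
Mean log2 signal over the 6 arrays (x axis) against the difference between the genotypes in log2 units (y axis), for all 19938 genes (grey) and for the ER chaperone arm (purple) and Atf4 arm (green). The stress genes lie between -0.21 and 0.36, within the bulk of genes of like signal, and the ER arm reaches the brightest part of the array.

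The tissue and the targeted gene were read beside these. All 14 enterocyte markers were measured, with means of 6.92 to 12.92 (log2) against a median of 6.61 over all genes. Of these 12 were lower in Apc+/-Atg7-/- duodenum and 0 past the threshold, with a summed linear signal of 44124 to 50287 against 47712 to 56374, and 9 of 10 smooth muscle markers were lower, also with 0 past it, at 2480 to 4582 against 3450 to 5434. The part of either in the values below was not tested. Atg7 averaged 7.16 ± 0.11 and 6.63 ± 0.16 (SD, n = 3), with the highest Apc+/-Atg7-/- array below the lowest Apc+/- array (adjusted p = 0.242 by limma). Apc+/-Atg7-/- replicate 1 had a Xist signal of 4.58 where the other 5 arrays read 10.1 or more, and its Y-linked Eif2s3y read 8.44, so it came from a male. That animal was thus not the source of Apc+/-Atg7-/- replicates 2 and 3. Arrays correlated with each other at 0.989 to 0.994 across probe sets, and Apc+/- replicate 1 had the lowest array weight, 0.417. The 22 genes past the threshold became 2 without the male array, 12 without Apc+/- replicate 1, 13 without Apc+/- replicate 2 and 12 without Apc+/-Atg7-/- replicate 3.

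The ER arm was one of bright genes. Its means ran from 7.45 for Derl3 to 12.35 for Hsp90b1, the 22nd brightest of all genes, and all 25 stayed when the dimmer 50% of genes were removed. In the Atf4 arm means ran from 5.82 for Aldh1l2 to 9.57 for Slc3a2, and 13 of 19 stayed under the same limit. Levels of different genes on an array depend on their probes and are given only to place each gene on the scale.

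The sensors and the factors they act through showed no common direction, with 2 of 5 higher. In what follows, values per array are log2 signals on replicates 1, 2 and 3 in that order. Ern1, the IRE1 kinase and nuclease found in most cells, read 7.40, 7.46 and 7.58 in Apc+/- and 7.64, 7.54 and 7.60 in Apc+/-Atg7-/- duodenum. Its arrays overlapped, with a difference of 0.11 (SE 0.09). Ern2, the IRE1-beta of mucus-secreting epithelium, read 7.61, 7.77 and 7.71 against 7.59, 7.73 and 7.56, also overlapping (-0.07, SE 0.09). Goblet cell markers were lower on the same Apc+/-Atg7-/- arrays, 11 of 14 lower and 1 of them past the threshold, with a summed linear signal of 16634 to 18537 against 19006 to 21347 in Apc+/-, and their part in the value of Ern2 was not tested. Signals of these arrays do not reach 0, so no marker can be called absent.

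Atf6, the sensor that is cleaved to a transcription factor, read 8.60, 8.61 and 8.64 against 8.60, 8.61 and 8.47, and its difference of -0.06 (95% interval -0.25 to 0.13) was -0.02 without Apc+/-Atg7-/- replicate 3. Xbp1, the factor that Ern1 activates by splicing, read 8.81, 8.69 and 8.93 against 8.64, 8.62 and 8.68. Every Apc+/-Atg7-/- value was under every Apc+/- value, by a mean of 0.16 (SE 0.09, unadjusted p = 0.11, adjusted p = 0.95 by limma), which makes a level 1.12 times lower. It is the only gene of the ER arm whose genotypes stood apart in this direction, as did 5.23% of all genes. Ddit3 (CHOP), which drives cell death under lasting stress, read 8.12, 7.97 and 8.09 against 8.43, 8.26 and 7.83. The Apc+/-Atg7-/- arrays spread on both sides of the Apc+/- arrays, and the difference of 0.11 (SE 0.14) became -0.01 when the male array was left out and 0.29 when Apc+/-Atg7-/- replicate 3 was.

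Xbp1 is abundant in Paneth and plasma cells, whose markers were also lower. Of 11 Paneth cell markers 10 were lower and 3 past the threshold (Itln1, Ang4 and Defa24), and the summed linear signal was 5161 to 6606 against 10460 to 11954 in Apc+/-. Of 12 plasma and B cell markers 11 were lower and 0 past the threshold, at 4437 to 5041 against 4758 to 5090. Their part in the value of Xbp1 was not tested.

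The chaperones of the ER lumen and their partners were each higher in Apc+/-Atg7-/- duodenum, 10 of 10, by 0.03 to 0.24, though none passed the threshold. Of all genes 43.2% were higher, or 54.1% with arrays centred. The 10 signs held under a further quantile normalization and under centring of arrays. Those of Dnajb9 and Canx turned when certain arrays were left out, and that of Dnajb9 with array weights. The most abundant, Hsp90b1 (the ER's Hsp90, Grp94), read 12.32, 12.26 and 12.39 against 12.39, 12.37 and 12.36. Its arrays overlapped, with a difference of 0.05 (95% interval -0.14 to 0.24). Hspa5, the ER's Hsp70 and the usual gauge of the response, averaged 11.41 ± 0.12 against 11.46 ± 0.07 (SD, n = 3), a difference of 0.06 with an interval of -0.16 to 0.27, or 1.04-fold. Canx, the membrane-bound lectin chaperone, and Dnajc3, which inhibits Eif2ak3 and aids Hspa5, differed by 0.03 (SE 0.09) and 0.06 (SE 0.09).

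Hyou1, Creld2, Calr and Manf stood apart between the genotypes, each higher, as did 4.81% of all genes. Hyou1, an exchange factor for Hspa5, read 8.18, 8.15 and 8.34 against 8.36, 8.52 and 8.51. Its difference was 0.24 (SE 0.10, unadjusted p = 0.0315, adjusted p = 0.933 by limma). Creld2, an ER protein induced by stress, read 8.85, 8.72 and 8.95 against 8.97, 9.10 and 9.12. It differed by 0.22 (SE 0.10, unadjusted p = 0.0451, adjusted p = 0.95 by limma). Calr, the soluble lectin chaperone that also holds calcium, read 10.96, 10.87 and 11.01 against 11.08, 11.10 and 11.17, a difference of 0.17 (SE 0.09). The gap between the highest Apc+/- and the lowest Apc+/-Atg7-/- array was narrow in all of these, and in Hyou1 and Creld2 both lay next to each other at 8.34 and 8.36 and at 8.95 and 8.97. Manf, a secreted ER protein, differed by 0.11 (SE 0.08). Sdf2l1, a partner of Hspa5 in complexes of chaperones, differed by 0.15 (SE 0.13), or 0.02 without Apc+/-Atg7-/- replicate 3, and Dnajb9, which recruits Hspa5 to Ern1, by 0.05 (SE 0.16).

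All 3 protein disulfide isomerases, the enzymes that form and shuffle disulfide bonds, had higher signals on every Apc+/-Atg7-/- array than on any Apc+/- array. Pdia6 read 9.45, 9.27 and 9.52 against 9.66, 9.73 and 9.73. The difference of 0.29 (95% interval 0.08 to 0.51), or 1.23-fold, had an unadjusted p of 0.0117 and an adjusted p of 0.813 by limma. Pdia4 read 9.59, 9.20 and 9.58 against 9.65, 9.70 and 9.75 (0.24, SE 0.12), and Pdia3, which works with Calr and Canx on glycoproteins, 11.30, 10.99 and 11.13 against 11.38, 11.33 and 11.37 (0.22, SE 0.10). Apc+/- replicate 2 was the lowest array for each, and without it the differences were 0.22, 0.12 and 0.15 in that order. A dimmer second probe set of Pdia4 read 6.62, 6.61 and 6.70 against 7.31, 6.64 and 6.46, where the genotypes overlapped.

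**Figure D2:**
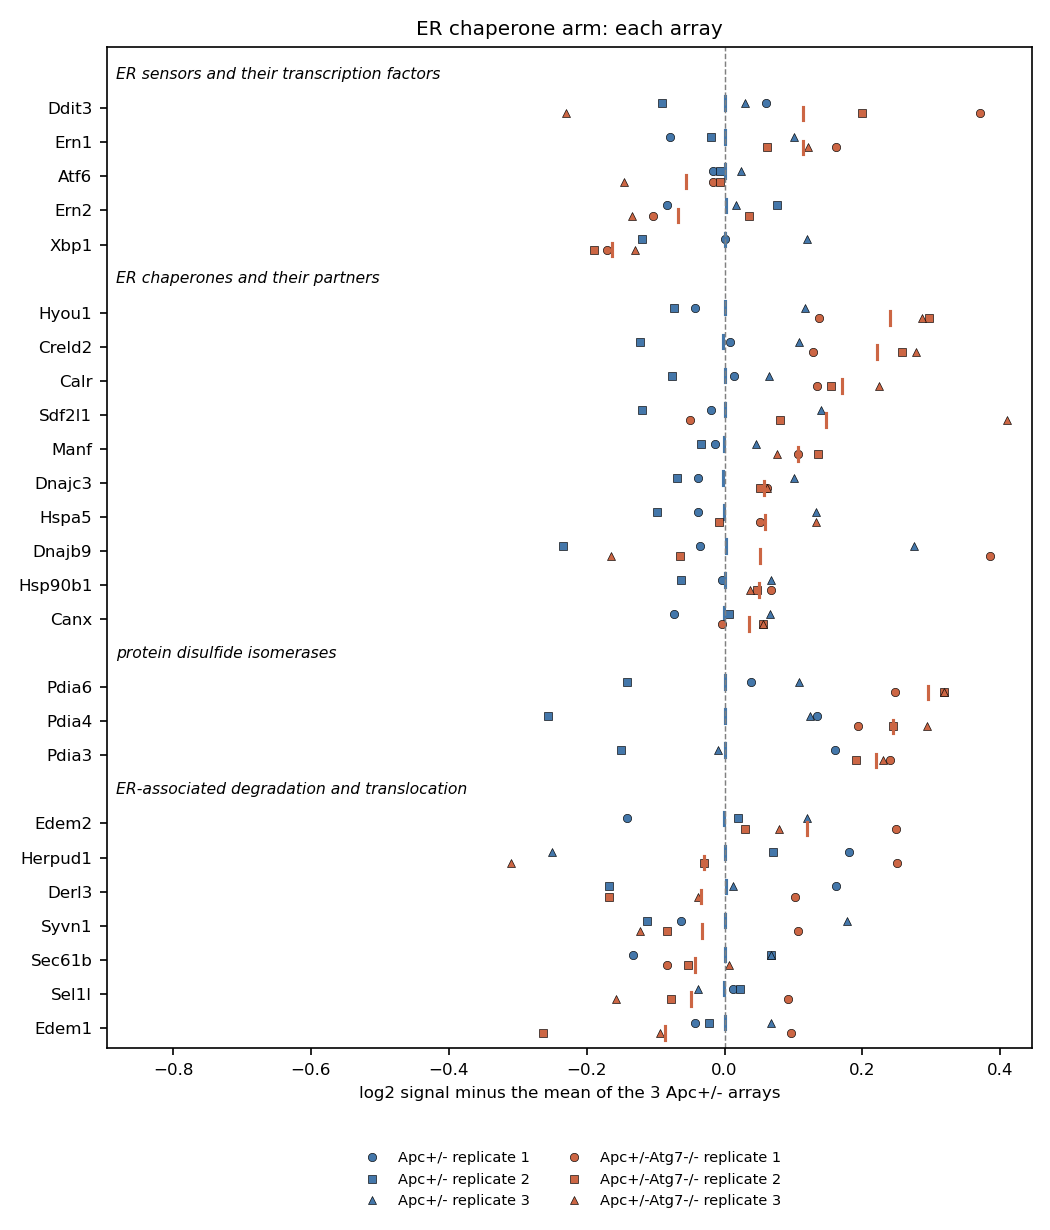
Log2 signal of each of the 25 genes of the ER chaperone arm on each array, minus the mean of the 3 Apc+/- arrays (x axis), by role; blue marks are Apc+/- and orange marks Apc+/-Atg7-/- arrays, shapes give the replicate number, and short lines the genotype means. The isomerases and Hyou1, Creld2, Calr and Manf have all orange marks to the right of all blue ones, Xbp1 has them to the left, and the degradation genes are mixed.

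Genes of ER-associated degradation, which extracts misfolded protein to the cytosol, did not share the sign of the chaperones. Of 7 genes 6 were lower, by 0.03 to 0.08, and none stood apart. The signs of Herpud1, Derl3, Syvn1, Sel1l and Edem1 turned when certain arrays were left out, so no direction is given. Sec61b, a subunit of the translocation channel, had the highest signal of them and read 9.42, 9.62 and 9.62 against 9.47, 9.50 and 9.56. Its 3 probe sets differed by -0.04, -0.02 and -0.01. Edem2, a mannosidase that marks glycoproteins for disposal, was the gene with a higher mean (0.12, SE 0.10). Edem1, of the same family, differed by -0.08 (SE 0.11). The ligase Syvn1 (Hrd1), its partner Sel1l, the channel protein Derl3 and Herpud1, which assembles that complex, differed by -0.04, -0.04, -0.03 and -0.03 in that order. The 95% intervals of these 7 genes reach no further than 0.38 from 0.

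**Figure D3:**
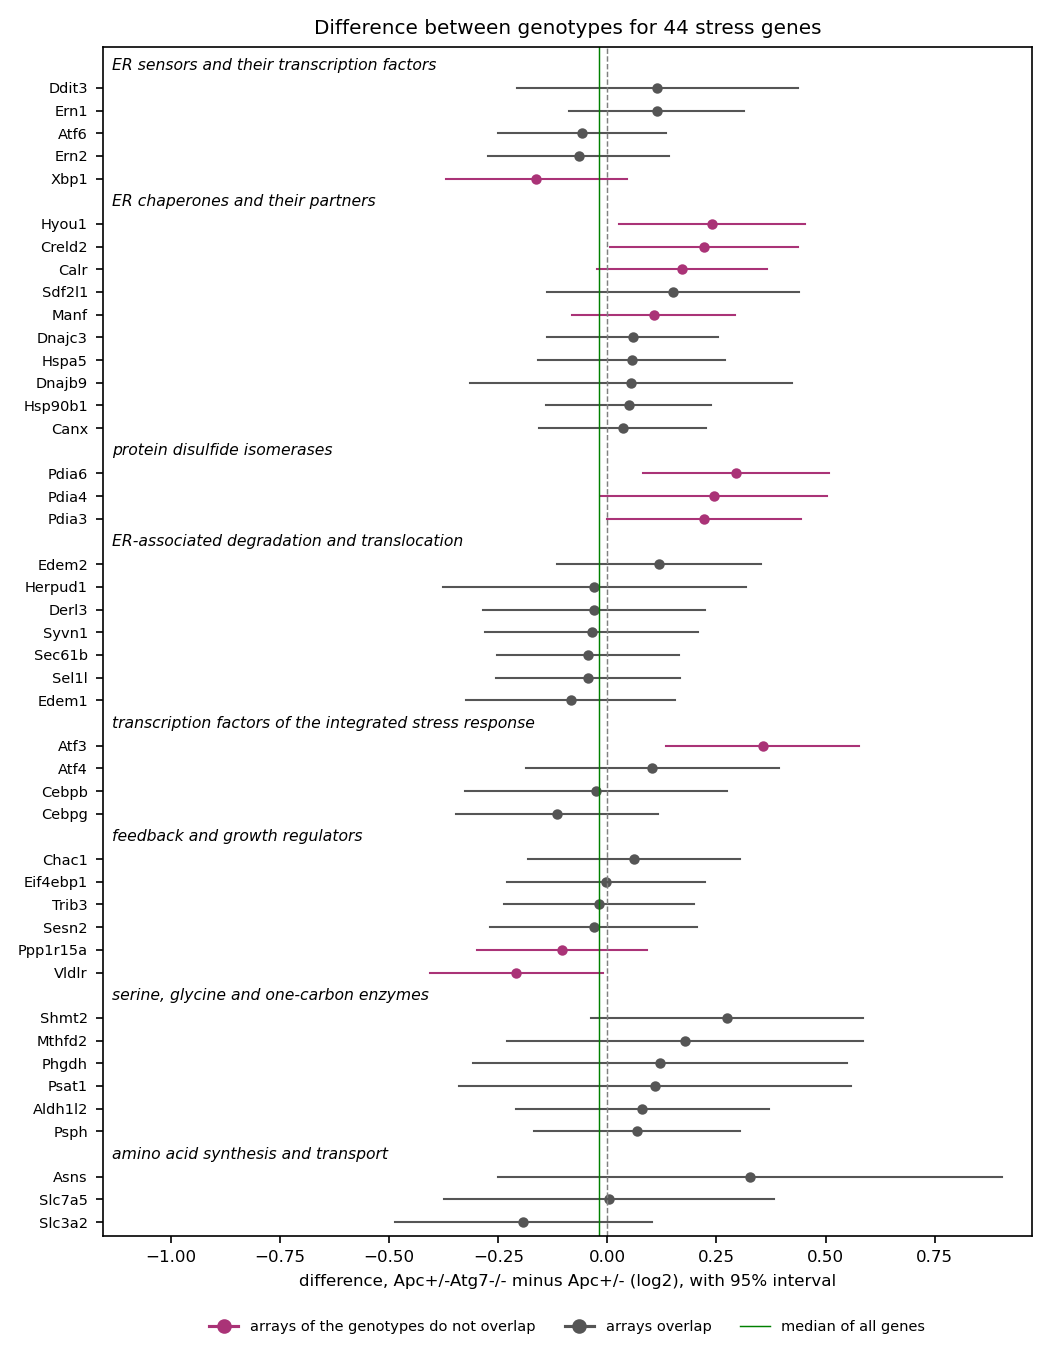
Difference between the genotypes in log2 units with its 95% interval for each of the 44 genes, by role; purple marks genes whose arrays do not overlap between genotypes, and the green line the median of all genes at -0.02. The isomerases and several chaperones lie to the right, from 0.11 to 0.29, while degradation genes centre near 0.

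Read together by array, 8 of the 25 ER arm genes stood apart, 7 of them higher, where 4.81% of all genes stood apart higher. That is 32.0% of the arm beside 10.0% of all genes. The genes of the arm are not independent of each other, since Apc+/- replicate 2 was the lowest of the 6 arrays for 13 of the 25, including 9 of the 10 chaperones and all 3 isomerases, while it was lowest for 2936 of all 19938 genes. Genes that stand apart on all arrays do so on any fewer, so the count cannot fall when an array is left out, and the share of all genes rises with it. The arm's share was then 36.0% beside 30.9% of all genes without Apc+/- replicate 1, 32.0% beside 16.4% without Apc+/- replicate 2 and 52.0% beside 20.1% without Apc+/- replicate 3. Without Apc+/-Atg7-/- replicates 1, 2 and 3 it was 40.0% beside 19.8%, 44% beside 17.0% and 36.0% beside 18.1%. Over both arms 11 genes stood apart, and 18 when Apc+/- replicate 3 was left out.

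The isomerases of the ER arm and the markers of dividing cells both had higher means in Apc+/-Atg7-/- duodenum and their lowest mean on Apc+/- replicate 2. As means over genes of the deviation from the Apc+/- mean, the isomerases stood at 0.11, -0.18 and 0.07 in Apc+/- and at 0.23, 0.25 and 0.28 in Apc+/-Atg7-/- duodenum. The 19 proliferation markers stood at 0.11, -0.15 and 0.04 against 0.14, 0.34 and 0.38. All 19 were higher in Apc+/-Atg7-/- duodenum and 0 past the threshold, with a summed linear signal of 8053 to 9391 against 6559 to 7940. Apc+/- replicate 2 was the lowest array for 15 of them. Their part in the values of the isomerases and chaperones was not tested. Of 14 markers of pancreatic acinar cells, which are rich in ER chaperones, 8 were lower and 0 past the threshold. They averaged at most 7.05, and their summed linear signal was 905 to 978 against 937 to 977 in Apc+/-, and their part was not tested either.

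**Figure D4:**
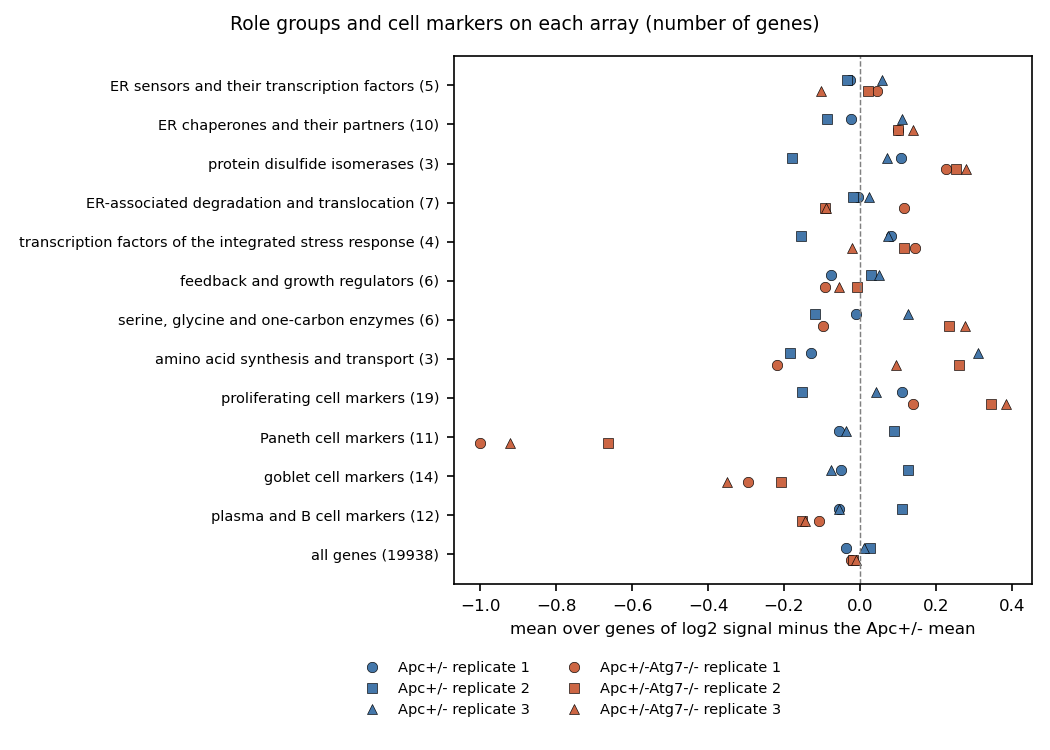
Mean over the genes of each group of the log2 signal minus the Apc+/- mean (x axis) on each array, for the roles of the stress genes, for cell markers and for all genes, with the number of genes in brackets; colours and shapes as for the plot of the ER chaperone arm by array. The isomerases and the proliferation markers have every orange mark to the right of every blue one, while the Paneth, goblet and plasma cell markers have the mean of the orange marks to the left.

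The ER arm genes with and without an ER stress response element are given side by side, with no test. The median difference was 0.06 over the 9 genes with it, from -0.04 to 0.29, and 0.08 over the 12 with a window that lacks it, from -0.16 to 0.24. Of the former 3 stood apart, all higher, and of the latter 2 higher and 1 lower. The 4 genes of the arm with no window (Atf6, Ern2, Hyou1 and Manf) held 2 that stood apart higher, Hyou1 and Manf. Among all genes 4.81% stood apart higher and 5.23% lower. Pdia6 at 0.29, Creld2 at 0.22 and Calr at 0.17, printed above, hold the element, as do Syvn1 at -0.04 and Derl3 at -0.03. Pdia3 and Pdia4 stood apart without a match in the window.

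In the Atf4 arm the transcription factors differed from each other. Atf3, an early stress factor that Atf4 induces, had the smallest p of the 44 genes. It read 7.52, 7.41 and 7.41 in Apc+/- and 7.95, 7.67 and 7.78 in Apc+/-Atg7-/- duodenum, so the genotypes did not overlap. The difference was 0.36 (SE 0.10, 95% interval 0.14 to 0.58), or 1.28-fold, with an unadjusted p of 0.00503 and an adjusted p of 0.656 by limma. It was 0.28 without the male array, which was its highest, and 0.42 without Apc+/-Atg7-/- replicate 2.

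Atf4 itself, whose activity is set mainly by translation, read 8.79, 8.41 and 8.72 against 8.87, 8.82 and 8.53. Its arrays overlapped (0.10, SE 0.13), and without Apc+/- replicate 2 the difference was -0.01. Cebpg, a partner of Atf4 in binding DNA, had the highest signal of these factors and read 9.50, 9.35 and 9.45 against 9.42, 9.39 and 9.14 (-0.12, SE 0.10). Cebpb, which pairs with Ddit3, differed by -0.03 (SE 0.13), and its sign turned with quantile normalization and with centring.

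Feedback and growth regulators were level or lower, 5 of 6, and the signs of Trib3 and Eif4ebp1 turned with both scalings and that of Sesn2 with quantile normalization. Vldlr, a lipoprotein receptor that Atf4 can induce, read 6.82, 6.70 and 6.72 against 6.46, 6.58 and 6.58. Every Apc+/-Atg7-/- value was the lower one, by a mean of 0.21 (SE 0.09, unadjusted p = 0.0407, adjusted p = 0.95 by limma). Ppp1r15a (Gadd34), which leads the phosphatase that reverses eIF2-alpha phosphorylation, read 6.58, 6.58 and 6.55 against 6.48, 6.37 and 6.54 (-0.10, SE 0.09). It also stood apart lower, narrowly, with the nearest values at 6.55 and 6.54. Among all genes 5.23% stood apart lower. Eif4ebp1, a repressor of cap-dependent translation, had the highest signal of the group and read 6.85, 7.07 and 7.11 against 6.92, 7.10 and 7.0, a difference of -0.003 (95% interval -0.23 to 0.22). Trib3, a pseudokinase that dampens Atf4, Sesn2, which senses leucine, and Chac1, which degrades glutathione, differed by -0.02 (SE 0.10), -0.03 (SE 0.11) and 0.06 (SE 0.11).

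Enzymes of serine, glycine and folate metabolism, which Atf4 induces when amino acids are short, were each higher in the mean, 6 of 6, by 0.07 to 0.27, and 0 stood apart. Of all genes 43.2% were higher, or 54.1% with arrays centred. Shmt2, the mitochondrial enzyme that splits serine, read 7.03, 6.89 and 7.20 against 7.03, 7.39 and 7.53 (0.27, SE 0.14, unadjusted p = 0.0778, adjusted p = 0.95 by limma). Mthfd2, the next enzyme in the mitochondrial folate path, had the highest signal and read 7.48, 7.16 and 7.92 against 7.45, 7.86 and 7.79 (0.18, SE 0.18). For Shmt2 the male array lay among the Apc+/- arrays and the other Apc+/-Atg7-/- arrays above them, while for Mthfd2 every Apc+/-Atg7-/- array lay within the Apc+/- range. Phgdh and Psat1, which begin serine synthesis, differed by 0.12 (SE 0.19) and 0.11 (SE 0.20), and without Apc+/-Atg7-/- replicate 3 by -0.14 and -0.04. Psph, which completes it, and Aldh1l2, a mitochondrial folate enzyme, differed by 0.07 (SE 0.11) and 0.08 (SE 0.13). The signs of Psph, Mthfd2 and Aldh1l2 turned as well when certain arrays were left out.

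Asns, asparagine synthetase, varied most between arrays of all 44 genes. It read 8.55, 8.57 and 9.50 against 8.76, 9.42 and 9.42, so that Apc+/- replicate 3 had the highest signal of all 6. Its difference of 0.33 (SE 0.26) had an interval of -0.25 to 0.90, and it was 0.64 without that array and 0.17 and 0.18 without Apc+/- replicates 1 and 2. The amino acid exchanger of Slc7a5 and its heavy chain Slc3a2 gave 0.004 (SE 0.17) and -0.19 (SE 0.13). Slc3a2 read 9.77, 9.66 and 9.57 against 9.34, 9.78 and 9.31, with Apc+/-Atg7-/- replicate 2 above all Apc+/- arrays. Slc7a5 also had its highest signal, 7.36, on Apc+/- replicate 3.

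**Figure D5:**
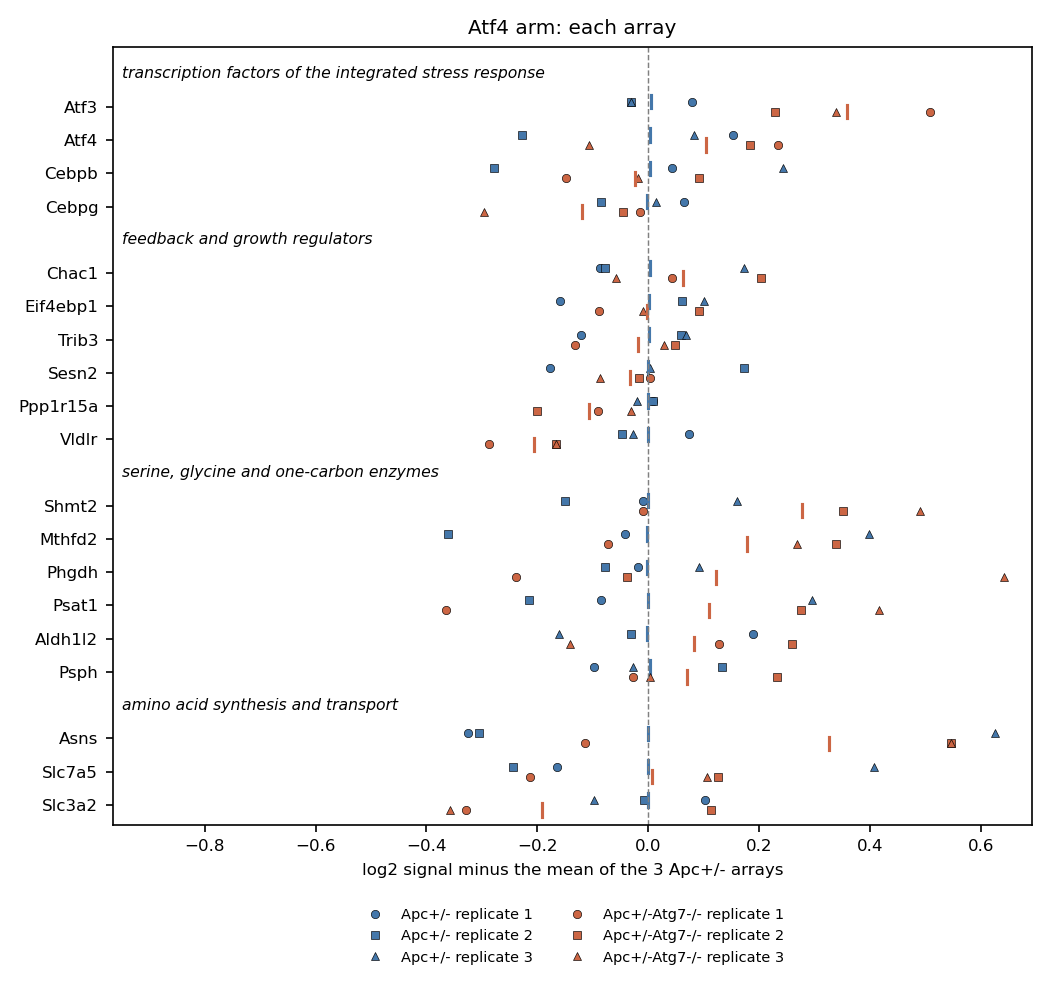
Log2 signal of each of the 19 measured genes of the Atf4 arm on each array, minus the mean of the 3 Apc+/- arrays (x axis), by role; colours and shapes as for the plot of the ER chaperone arm by array. Atf3 has all Apc+/-Atg7-/- marks to the right, and Vldlr and, narrowly, Ppp1r15a to the left, while Asns and the serine enzymes spread widely within both genotypes.

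Genes of both pathways outside the 44 were read from lists of the pathways' known genes. Of 36 other ER stress genes 0 passed the threshold, 23 were higher, and the median difference was 0.03. Vcp, the ATPase that pulls substrates from the ER, read 9.90, 9.82 and 9.85 against 10.07, 10.04 and 10.10, a difference of 0.21 (SE 0.08, unadjusted p = 0.0311, adjusted p = 0.933 by limma). Dnajc10, a reductase of the ER, differed by 0.28 (SE 0.12), Pdia5, a further isomerase, by 0.19 (SE 0.09) and Ddost, of the oligosaccharyl transferase, by 0.24 (SE 0.12). P4hb, Txndc5 and Txndc11, of the isomerase family and named after their values were seen, overlapped between the genotypes. They differed by 0.03 (SE 0.09), 0.02 (SE 0.09) and -0.02 (SE 0.09). The sensor Eif2ak3 read 7.52, 7.41 and 7.57 against 7.52, 7.47 and 7.52, a difference of 0.01 (95% interval -0.19 to 0.20).

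Of 35 other integrated stress genes 0 passed, 27 were higher and the median was 0.10. Eif2ak2 (PKR), the eIF2-alpha kinase that binds double-stranded RNA, had the smallest p of both lists. It read 8.69, 8.54 and 8.60 in Apc+/- and 9.16, 9.07 and 9.03 in Apc+/-Atg7-/- duodenum, so that the gap between the genotypes was wider than the range within each. The difference was 0.48 (SE 0.09), or 1.39-fold, with an unadjusted p of 0.000349 and an adjusted p of 0.167 by limma. Eif2ak2 is itself induced by interferon, and 14 of 14 interferon markers were higher on the same arrays, 7 of them past the threshold, with a summed linear signal of 6413 to 7234 against 3440 to 4013. Their part in its value was not tested. The other kinases Eif2ak1 and Eif2ak4, named after their values were seen, differed by 0.01 (SE 0.09) and -0.15 (SE 0.10).

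The amino acid transporter Slc38a2 and the tRNA synthetases Wars and Iars came next, at 0.22 (SE 0.11), 0.22 (SE 0.11) and 0.30 (SE 0.16), and Atf5, a factor translated like Atf4, stood at 0.09 (SE 0.13). At an unadjusted p under 0.05 there were 3 of these 71 genes. That count was 8 without Apc+/- replicate 1, where 12% of all genes passed the same limit, 8 without Apc+/- replicate 3 (5.54% of all genes) and 6 without the male array (5.43%), beside 5.11% of all genes with every array.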

How the data were processed

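Total RNA was made into biotinylated cDNA for Affymetrix arrays, per the labels' protocols. RMA and Partek are named without versions, per the submitters' processing notes. The values the authors deposited run from 2.40 to 13.28, with array medians of 6.43 to 6.56, and were taken as log2 signals from that range, with the base itself read from the values. RMA as usually run makes the arrays' signal distributions alike, which removes a shift shared by all genes.

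Of 28853 probe sets, 21789 (75.5%) name 1 gene, giving 19938 genes. A two-sided comparison, Apc+/-Atg7-/- minus Apc+/-, was made by limma 3.58.1 under R 4.3.3 (lmFit, eBayes, 9.7 degrees of freedom, no filter or covariate). P-values were adjusted by Benjamini-Hochberg over all genes, with a threshold of 0.05. The comparison was tried on simulated data with planted changes larger than the difference of any member. That trial does not bear on changes of the size seen here. Members and lists were chosen with earlier results of these data known. Arrays are given one by one for the 6 smallest p in each arm, the brightest gene of each role and the sensors and factors. Other pathway lists name their 4 smallest p and Eif2ak3, Eif2ak2 and Atf5, and the text marks the genes named after their values were seen. No batch is given in the labels. Array values carry no read depth, and the number of arrays limits the precision. Any pair of arrays differed with an SD across probe sets of at least 0.213 (log2), so none was a copy. Promoters came from RefSeq. Figures were drawn with matplotlib 3.10.9. Alternatives are given in the closing section.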

Additional observations from a re-analysis of the deposited data

How the results depend on the processing

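No member passed an adjusted p of 0.05 under any of 15 alternatives, with a lowest adjusted p of 0.332, and 24 of the 44 kept their sign in all. The counts of all genes past that threshold were 44 with the replicate number as a block and 0 without moderation, and 2 to 27 with an array left out. With an array left out, members at an unadjusted p under 0.05 numbered 3 to 8, members whose genotypes stood apart 13 to 18 (an alternative chosen after seeing the data, which cannot lower the count, while the share of all genes went from 10.0% to between 16.4% and 30.9%), and the medians ran from 0.024 to 0.12 for the ER arm and from -0.011 to 0.094 for the Atf4 arm. The other pathway genes at an unadjusted p under 0.05 numbered 6 with the replicate block, 7 with arrays centred, 6 with a variance trend and robust moderation, 6 without moderation, 8 with array weights and 2 to 8 with an array left out. The share of all genes at that limit was 5.11%, and 6.48%, 5.01%, 5.32%, 4.96% and 8.92% under these settings in turn, and 3.57% to 12% with an array left out. The sign turned with a further quantile normalization for Trib3 0.012, Sesn2 0.0020, Eif4ebp1 0.0060 and Cebpb 0.011. The sign turned with arrays centred on their medians for Trib3 0.0093, Eif4ebp1 0.026 and Cebpb 0.0036. The sign turned with array weights for Dnajb9 -0.023, Herpud1 0.055, Slc7a5 -0.093 and Eif2ak3 -0.0093. Signs also turned with an array left out, where the differences ran as follows: Herpud1 -0.17 to 0.11, Canx -0.0004 to 0.067, Derl3 -0.12 to 0.050, Slc7a5 -0.12 to 0.21, Atf5 -0.025 to 0.19, Ddit3 -0.015 to 0.29, Dnajb9 -0.11 to 0.19, Trib3 -0.080 to 0.038, Eif4ebp1 -0.082 to 0.046, Cebpb -0.17 to 0.094, Atf4 -0.012 to 0.21, Sesn2 -0.12 to 0.057, Psat1 -0.044 to 0.35, Mthfd2 -0.0034 to 0.38, Eif2ak3 -0.039 to 0.043, Syvn1 -0.11 to 0.052, Aldh1l2 -0.0089 to 0.19, Edem1 -0.18 to 0.0037, Chac1 -0.0084 to 0.14, Psph -0.011 to 0.13, Sel1l -0.11 to 0.0099 and Phgdh -0.14 to 0.30. The cause was not tested.

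The labels do not say whether the replicate numbers pair the samples, and the values do not settle it. Deviations of same-numbered arrays correlated at 0.146, -0.0742 and 0.24. With the replicate block 44 of all genes passed the threshold, against 22 without it, and 0 members passed in either fit. The limits are 3 arrays per genotype, whole tissue and 1 male array. Intervals within 0.5 of 0 bound 36 of the 44 members, beside 18033 of all 19938 genes, and the other members are less well bounded, Asns least.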
